A study of Mus musculus with 30 samples.

Results

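The epidermal kallikreins are secreted serine proteases of the outer skin layers. The 8 followed here are Klk5, Klk6, Klk7, Klk8, Klk10, Klk11, Klk13 and Klk14. They are described together with Spink5, whose product is an inhibitor of such proteases though not shown here to act on each, in mouse preputial glands during oral exposure to benzo[a]pyrene (BaP). The 9 genes were taken by name as the proteases of skin shedding and an inhibitor, with earlier results of these data known. Each was read by 1 probe set, and they are 9 of 18784 genes measured.

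BaP is a carcinogenic polycyclic aromatic hydrocarbon of smoke and soot, and the preputial gland is a modified sebaceous gland of the male mouse whose duct is lined by squamous epithelium. The study followed gene expression while squamous cell carcinoma formed in that duct. Arrays were made from 15 groups of 2 mice each. All mice were males of the B6 background. They were double knockouts for Cyp1a1 and Cyp1b1 (DKO), single Cyp1a1 knockouts (Cyp1a1 KO) or wild type (WT). In each genotype they were killed at weeks 0, 4, 8, 12 and 16 of a diet that began at 6 weeks of age and supplied about 12.5 mg/kg/day of BaP. Week 0 mice were the only ones without BaP, so age and exposure rose together and cannot be told apart. Cyp1a1 and Cyp1b1 encode enzymes that oxidise BaP, and the labels describe the lost alleles only by gene name, with no driver or tissue restriction. The labels call the tissue preputial gland duct, while the protocols describe whole glands freed of surrounding tissue, so each array reads a mixture of cells. In such a mixture a higher share of squamous cells and more RNA per cell cannot be told apart.

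In the epidermis kallikreins are made by upper keratinocytes as inactive precursors and are released between the cells of the cornified layer. Klk5 can activate itself and then activates Klk7 and Klk14, and together they cut corneodesmosin, desmocollin 1 and desmoglein 1, the proteins that hold corneocytes together. Spink5, which lies on another chromosome than the kallikreins, encodes LEKTI, a secreted chain of inhibitor domains that blocks these proteases, and its loss in people causes Netherton syndrome, with premature shedding of the skin barrier.

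The kallikrein genes are neighbours. On chromosome 7 of the GRCm38.p6 assembly this block of the family runs Klk14, Klk13, Klk12, Klk11, Klk10, Klk9, Klk8, Klk7, Klk6, Klk5, Klk4 and Klk15. Windows of 250 bases before the start of transcription are printed here for Klk14, Klk7 and Klk6, the 3 members that rose in DKO glands, and for Klk10, which lay lower in DKO than in both other genotypes. The sequences are from RefSeq, build GRCm38.p6, and run 5′ to 3′. Capitals mark CACCC, a motif of Krüppel-like factors, or GGGTG, the same motif read on the other strand. For Klk6 the first of 2 listed starts is shown.
Klk14, chr7:43690168-43690417, plus strand: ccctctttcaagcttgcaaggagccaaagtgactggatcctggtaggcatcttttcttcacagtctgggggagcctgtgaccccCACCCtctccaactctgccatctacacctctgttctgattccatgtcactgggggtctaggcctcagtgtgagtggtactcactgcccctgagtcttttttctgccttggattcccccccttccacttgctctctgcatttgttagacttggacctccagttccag
Klk7, chr7:43811044-43811293, plus strand: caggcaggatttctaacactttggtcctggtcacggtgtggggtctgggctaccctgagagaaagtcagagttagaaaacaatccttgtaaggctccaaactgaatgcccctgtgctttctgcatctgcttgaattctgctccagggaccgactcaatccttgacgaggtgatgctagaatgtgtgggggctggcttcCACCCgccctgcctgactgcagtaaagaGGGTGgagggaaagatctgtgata
Klk6, chr7:43824294-43824543, plus strand: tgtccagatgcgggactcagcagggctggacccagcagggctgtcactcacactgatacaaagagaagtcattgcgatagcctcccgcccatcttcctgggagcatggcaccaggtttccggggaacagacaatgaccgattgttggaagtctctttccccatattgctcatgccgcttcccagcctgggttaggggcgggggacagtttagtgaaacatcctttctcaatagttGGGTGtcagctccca
Klk10, chr7:43780804-43781053, plus strand: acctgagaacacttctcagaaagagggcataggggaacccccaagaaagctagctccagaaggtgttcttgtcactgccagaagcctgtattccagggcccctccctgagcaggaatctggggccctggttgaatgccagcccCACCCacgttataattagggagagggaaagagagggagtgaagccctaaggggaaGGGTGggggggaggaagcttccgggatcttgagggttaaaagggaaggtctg
Motifs were searched on both strands. CACCC occurred 1 time in the Klk14 window, 2 times in that of Klk7, 1 time in that of Klk6 and 2 times in that of Klk10. Of the windows not printed, those of Klk5, Klk13 and the first Klk11 start held it. Those of Klk8 and of the second Klk6 and Klk11 starts did not. CACCC occurred in 52% of 32851 windows of the same length upstream of listed starts. These were the starts with a full-length sequence, with the chromosome of Spink5 left out. None of the 4 windows held GCGTG, the core letters bound by the aryl hydrocarbon receptor, which occurred in 28.2% of all windows. The window of the second Klk6 start held it 1 time. TGANTCA, the AP-1 motif (6.75% of all windows), and TATAAA, the TATA box (12.4%), were in none of the 4 windows either. These matches describe letters in short windows and say nothing of binding.

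The arrays were not of equal quality. The standard deviation of all log2 values in an array was 1.70 to 2.08 in 21 arrays and 1.15 to 1.42 in 9. The 9 narrow-range arrays were 8 of the 10 labelled DKO and replicate 2 of Cyp1a1 KO week 12, so that in DKO glands only replicate 1 of week 0 and replicate 2 of week 12 had the usual range. The submitters' sample descriptions also number the arrays, and numbers 22 to 33 cover 9 of the 10 DKO arrays and the narrow-range Cyp1a1 KO array, numbers 1 to 20 the rest. Genotype and number range are thus nearly the same split, and for DKO against the other genotypes they cannot be told apart. Cyp1b1, targeted in DKO, had means of 10.2 in arrays labelled DKO, 8.47 in Cyp1a1 KO and 6.51 in WT over weeks 4 to 16, so its signal was highest where the gene is labelled as lost. The position of its probe set within the gene was not used here, and Cyp1a1 was low in every group, so neither gene checks the genotypes. DKO below means the arrays labelled so. Nothing in the labels says that the 2 mice of a group came from separate litters or cages, and p-values measure the spread between such arrays.

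Values are log2 intensities, so a difference of 1 is a doubling of signal, and levels are compared within a gene and not between genes. Differences carry the standard error of 1 limma model fitted to all 30 arrays and 18784 genes. A gene was called at a Benjamini-Hochberg adjusted p under 0.05, with the adjustment made across the 18784 genes. Changes on BaP are the mean of weeks 4 to 16 minus week 0 of the same genotype, each week with equal weight.

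In DKO glands 3 kallikreins rose on BaP, the protease pair Klk7 and Klk14 and the trypsin-like Klk6. None of the 9 genes fell, and Spink5 did not pass the test. The rises were 2.26-fold to 2.93-fold. In this comparison 0.974% of all genes were called, 0.57% of all genes as higher. The median difference of the 9 genes was 0.60, against 0.04 over all genes. As the 9 were chosen with earlier results of these data known, this contrast is a description and no test of the set.

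**Figure D1:**
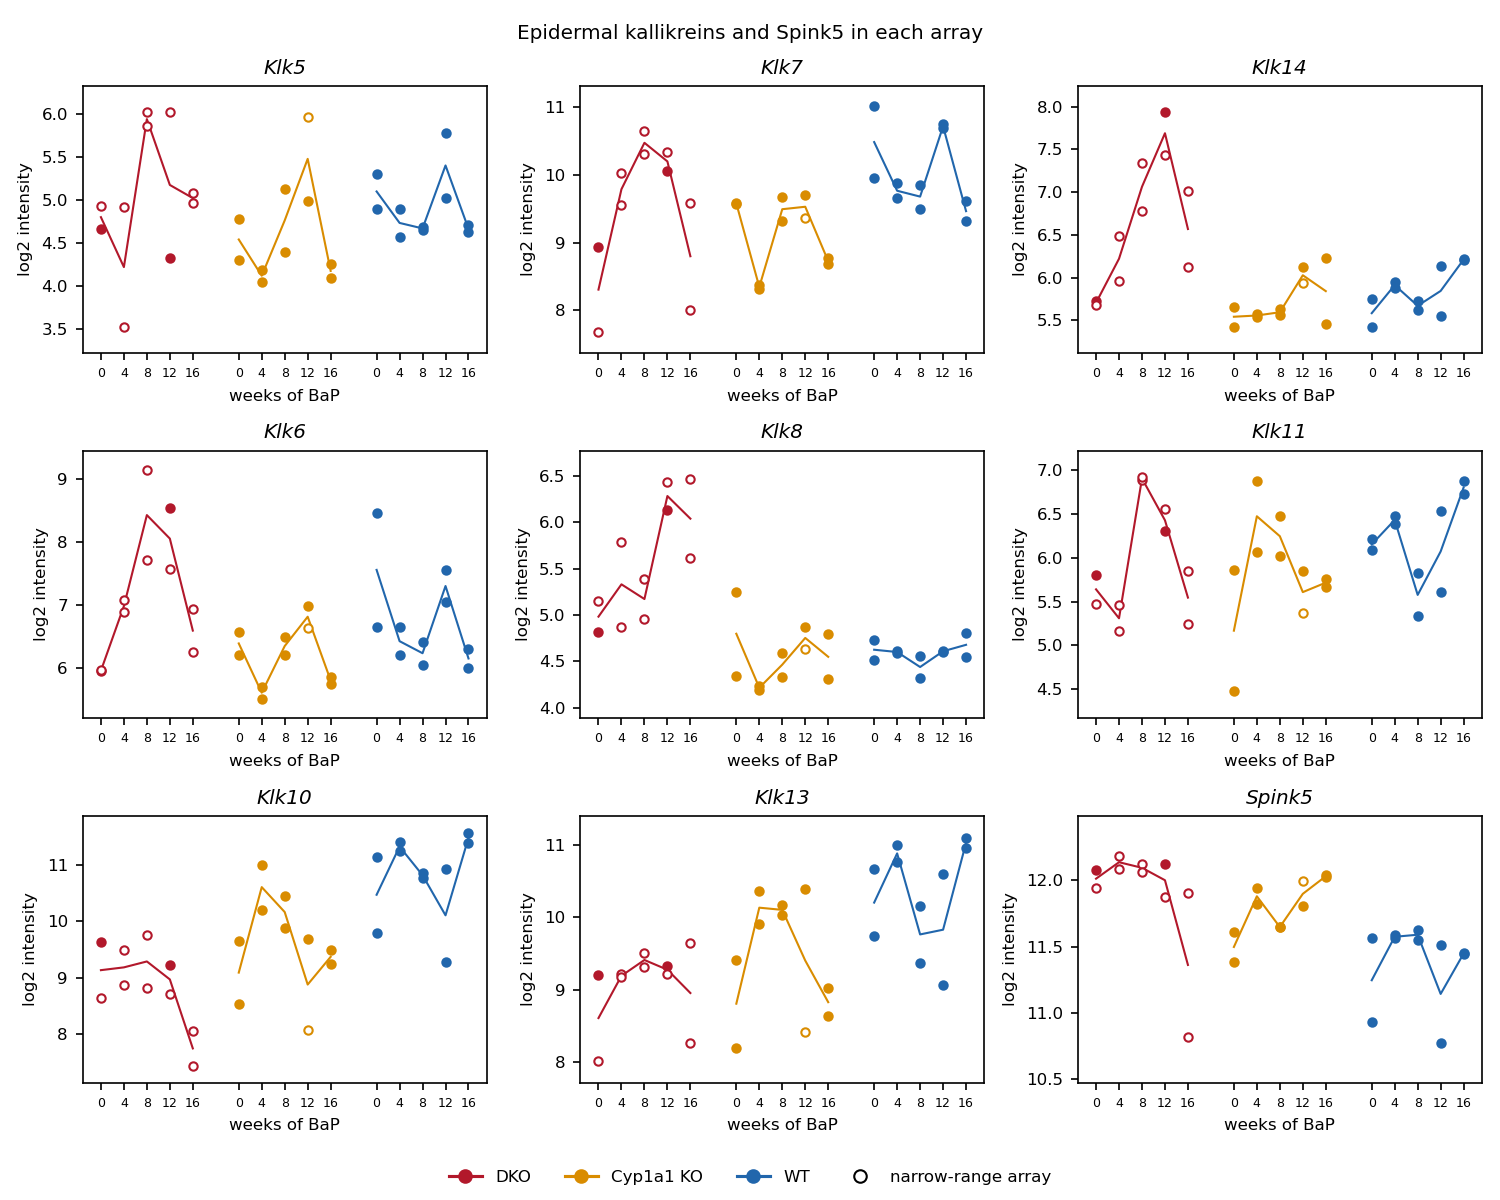
Log2 intensity of each of the 9 genes in all 30 arrays by weeks of BaP, for DKO (red), Cyp1a1 KO (orange) and WT (blue), with lines through the means of 2 mice and open circles for the 9 narrow-range arrays. Klk6, Klk7 and Klk14 peak at weeks 8 and 12 in DKO, Klk8 is highest at weeks 12 and 16 in DKO, and Klk10 and Klk13 lie highest in WT.

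Klk14, a trypsin-like protease downstream of Klk5, had 5.73 and 5.68 in the DKO mice of week 0. Its values were 5.96 and 6.49 at week 4, 6.78 and 7.34 at week 8, 7.44 and 7.94 at week 12, and 7.01 and 6.13 at week 16. All 8 BaP arrays lay above both week 0 arrays. The group means climbed to week 12 and were lower at week 16. The DKO mean was 6.89 over weeks 4 to 16 and 5.71 at week 0, a difference of 1.18 ± 0.27 (limma adjusted p = 0.0338).

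Klk7, the chymotrypsin-like protease that cuts corneodesmosin, had 8.93 and 7.68 in the DKO mice of week 0, which differed from each other by more than 1 unit. It had 9.55 and 10.03 at week 4, 10.64 and 10.30 at week 8, 10.34 and 10.06 at week 12, and 8.01 and 9.59 at week 16. The groups overlapped, because replicate 1 of week 16 lay below replicate 1 of week 0. The means were 9.81 on BaP and 8.31 at week 0, a difference of 1.51 ± 0.34 (limma adjusted p = 0.0355).

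Klk6, a trypsin-like kallikrein of keratinocytes and of the nervous system, had 5.96 and 5.97 in the DKO mice of week 0. It had 7.09 and 6.88 at week 4, 7.71 and 9.13 at week 8, 7.57 and 8.53 at week 12, and 6.26 and 6.93 at week 16. All 8 BaP arrays lay above both week 0 arrays, and the highest of them was replicate 2 of week 8. The means were 7.51 on BaP and 5.97 at week 0, a difference of 1.55 ± 0.38 (limma adjusted p = 0.0474).

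Klk6 and Klk14 were therefore 2 of 9 genes whose DKO arrays did not overlap between BaP and week 0, where 2.24% of all genes lay wholly higher on BaP. Leaving out 1 of the 10 DKO arrays in turn, Klk14 was called in 9 fits, Klk7 in 8 and Klk6 in 5. Without replicate 1 of week 0, 1 member was called, Klk7 (2.14, limma adjusted p = 0.0103), while the limma adjusted p was 0.0732 for Klk14 and 0.109 for Klk6. Without replicate 2 of week 0, 1 member was called, Klk14 (1.15, limma adjusted p = 0.0489), and Klk7 moved to 0.88 (limma adjusted p = 0.158).

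With the narrow-range arrays left out, 1 DKO array was set against 1, replicate 2 of week 12 against replicate 1 of week 0. Klk14 then differed by 2.21, Klk6 by 2.57, Klk8 by 1.32 and Klk7 by 1.12. Neither side had a spread of its own, so no test is given. Array weights, which give noisier arrays less say, ended the calls of Klk6, Klk7 and Klk14 (limma adjusted p = 0.999 each). The weights ran from 0.178 to 0.35 in DKO and from 1.44 to 6.39 in WT. These calls also ended in a fit to the DKO arrays alone, in which 9 genes in all were called, and in a fit within numbers 22 to 33.

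Klk5, the protease that starts the cascade, did not pass the test in DKO. It ranged from 3.52 to 6.03 over the 8 BaP arrays, with a median of 5.02, and was 4.67 and 4.94 at week 0. The difference was 0.29 ± 0.37 (95% interval -0.48 to 1.06, limma adjusted p = 0.741). Both arrays of week 8, at 6.03 and 5.86, were high, and both arrays of week 4, at 4.92 and 3.52, stood apart from each other.

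Klk8, a trypsin-like protease that in skin acts on the cornified layer and on antimicrobial peptides, had its highest DKO values late. It was 4.81 and 5.15 at week 0, 5.79 and 4.88 at week 4, 4.96 and 5.38 at week 8, 6.44 and 6.13 at week 12, and 6.47 and 5.61 at week 16. The 3 highest values were those of week 12 and replicate 1 of week 16, and replicate 2 of week 0 lay within the range of weeks 4 and 8. The difference over weeks 4 to 16 was 0.72 ± 0.28 (limma adjusted p = 0.197).

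The other 3 proteases, Klk11, Klk13 and Klk10, were not called in DKO. Klk11 differed by 0.41 ± 0.31, Klk13 by 0.60 ± 0.47 and Klk10 by -0.34 ± 0.45 (limma adjusted p = 0.543, 0.546 and 0.756). Klk11 was high in both arrays of week 8, at 6.89 and 6.92, against 5.81 and 5.47 at week 0. Klk13 ranged from 8.25 to 9.65 on BaP and was 9.20 and 8.01 at week 0, so a difference between the 2 week 0 mice of over 1 unit covered most of its range. With the number range as a block the Klk10 difference turned to 0.31 and that of Klk13 was 1.40 (limma adjusted p = 0.763 and 0.0879).

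Spink5 differed by -0.11 ± 0.25 in DKO (95% interval -0.64 to 0.41, limma adjusted p = 0.859). It was 12.08 and 11.94 at week 0, 12.19 and 12.09 at week 4, 12.13 and 12.06 at week 8, and 11.88 and 12.13 at week 12. At week 16 it was 10.82 and 11.91. Apart from replicate 1 of week 16, the DKO arrays lay between 11.88 and 12.19, and that array was about 1 unit lower. The same array had the lowest Klk7 and Klk10 values of the DKO BaP arrays, 8.01 and 7.44. It was a narrow-range array. Without it the week 16 difference of Spink5 was -0.11 (limma adjusted p = 0.914), and without the other array of that week Spink5 was called lower (-1.20, limma adjusted p = 0.0246).

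At week 16 alone none of the 9 genes was called against week 0 in DKO by limma, where 4.04% of all genes were. At an unadjusted p under 0.05 there were 3 members (Klk8 at 1.06, Klk10 at -1.39 and Klk14 at 0.86) and 4155 genes in all. Klk6 and Klk7 were highest at weeks 8 and 12, and their DKO week 16 means of 6.60 and 8.80 differed from week 0 by 0.63 ± 0.48 and 0.49 ± 0.43. Weeks 12 and 16 against weeks 4 and 8 gave no called member by limma either, where 0.628% of all genes were called (2 members and 2427 genes at an unadjusted p under 0.05). The most different member there was Klk8, with means of 6.16 late and 5.25 early, a difference of 0.91 ± 0.25 (limma adjusted p = 0.0978). It was called with the number range as a block (0.91, limma adjusted p = 0.0458), with quantile normalization (1.39, limma adjusted p = 0.0242) and without replicate 1 of week 4 (1.14) or replicate 2 of week 16 (1.12).

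In Cyp1a1 KO and WT glands no kallikrein was called on BaP and neither was Spink5. By limma 0% of all genes was called in either genotype, with 258 genes in Cyp1a1 KO and 154 in WT at an unadjusted p under 0.05, of which 1 was a member in each. In Cyp1a1 KO that member was Klk11. It had 6.07, 6.88, 6.47, 6.02, 5.84, 5.37, 5.67 and 5.76 from week 4 to week 16, against 4.48 and 5.86 at week 0. The arrays overlapped, and the difference was 0.84 ± 0.31 (limma adjusted p = 1.00). Without the lower week 0 array it was 0.15.

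In WT the member was Klk6, with a difference of -1.02 ± 0.38 (limma adjusted p = 1.00). The 8 BaP arrays ran from 6.01 to 7.56 with a median of 6.36, while the values at week 0 were 6.66 and 8.46. The week 0 mice differed from each other by more than the periods did, and without replicate 2 of week 0 the difference was -0.12. Klk7 differed by -0.58 ± 0.34 in WT and by -0.55 ± 0.34 in Cyp1a1 KO. Spink5 in Cyp1a1 KO was 11.65 to 12.04 on BaP, all above 11.38 and 11.61 at week 0, a difference of 0.37 ± 0.25 that was not called. In that comparison 1.25% of all genes lay wholly higher on BaP.

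**Figure D2:**
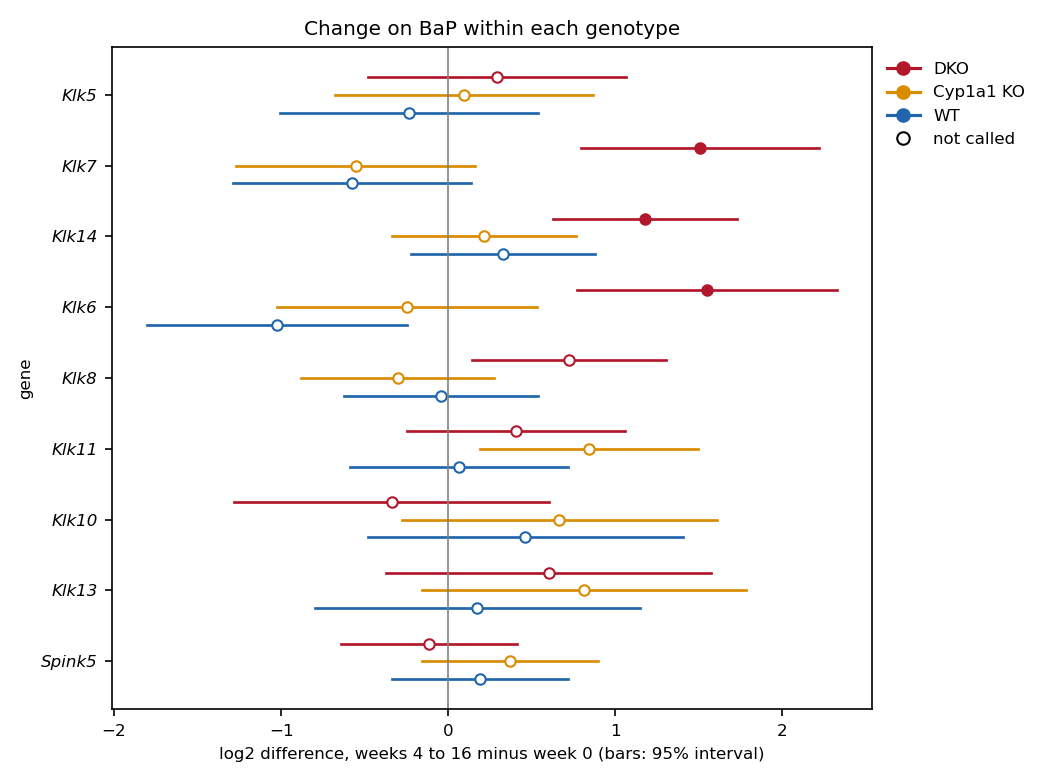
Log2 difference of weeks 4 to 16 minus week 0 for each gene within DKO (red), Cyp1a1 KO (orange) and WT (blue), with 95% intervals of the model; filled circles were called. Klk6, Klk7 and Klk14 are called in DKO, with 1.55, 1.51 and 1.18, and no gene is called in the other genotypes.

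Whether the changes differed between genotypes was tested directly. The DKO change minus the WT change was 2.57 ± 0.53 for Klk6 and 2.08 ± 0.49 for Klk7, and neither was called (limma adjusted p = 0.113 and 0.247). It was 0.85 ± 0.38 for Klk14 and 0.77 ± 0.39 for Klk8. Only 0.0373% of all genes were called in this comparison, 3 members and 891 genes had an unadjusted p under 0.05, and the median over all genes was 0.00. Against Cyp1a1 KO the DKO change differed most for Klk7, by 2.06 ± 0.49 (limma adjusted p = 0.199), and for Klk6, by 1.79 ± 0.53 (limma adjusted p = 0.423), with 0.0426% of all genes called. The Cyp1a1 KO change minus the WT change called 0% of all genes, with 0 members at an unadjusted p under 0.05. The rise of Klk6, Klk7 and Klk14 is therefore not shown to be larger in DKO than in the other genotypes.

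These differences of changes moved with the settings. With quantile normalization Klk6 (2.77, limma adjusted p = 0.0314) and Klk7 (2.13, limma adjusted p = 0.0316) were called between DKO and WT. With the number range as a block Klk7 was called against WT (2.48, limma adjusted p = 0.0246) and against Cyp1a1 KO (2.36, limma adjusted p = 0.0383). Without the narrow-range arrays the comparison was of week 12 with week 0 only, with 1 DKO array at each. Against WT the difference of changes was then 2.82 for Klk6, 1.95 for Klk14 and 0.89 for Klk7, and no test is given.

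Between genotypes on BaP the kallikreins split. In DKO Klk8, Klk6, Klk14 and Spink5 lay above WT, and Klk10 and Klk13 lay below. DKO and WT differed in 71.5% of all genes at this threshold, 41.5% as higher and 30% as lower, so 6 of 9 called members is close to the background and says little about these genes in particular. The median over the 9 was 0.22, against 0.19 over all genes. Direction went with level for the called kallikreins. Klk8, Klk14 and Klk6 had WT medians of 4.60, 5.91 and 6.36 on BaP, and Klk13 and Klk10 had 10.69 and 11.09. Spink5, above WT, had 11.53. The part of the narrow range in these differences was not tested.

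Klk8 was the clearest of those above. The 8 DKO arrays of weeks 4 to 16 ran from 4.88 to 6.47 with a median of 5.70, and the 8 WT arrays from 4.32 to 4.81 with a median of 4.60. The groups did not overlap, which held for 17.5% of all genes with DKO higher. The difference was 1.12 ± 0.18 (2.18-fold, limma adjusted p = 1.64e-05). Against the Cyp1a1 KO arrays, which ran from 4.19 to 4.87, the DKO arrays did not overlap either, by the small gap of 4.88 to 4.87. That difference was 1.21 ± 0.18 (limma adjusted p = 2.56e-05), and 1.12% of all genes lay wholly higher in DKO in that comparison.

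Klk14 ran from 5.96 to 7.94 in DKO, with a median of 6.90, and from 5.56 to 6.22 in WT, with a median of 5.91. It exceeded WT by 0.98 ± 0.17 (limma adjusted p = 4.25e-05) and Cyp1a1 KO, whose median was 5.60, by 1.13 ± 0.17 (limma adjusted p = 3.03e-05). Klk6 had medians of 7.33 in DKO, 6.04 in Cyp1a1 KO and 6.36 in WT, with overlap. It exceeded WT by 0.98 ± 0.24 (limma adjusted p = 0.00105) and Cyp1a1 KO by 1.36 ± 0.24 (limma adjusted p = 0.000115).

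Klk7 was not called between DKO and WT on BaP. The medians were 10.04 in DKO, 9.04 in Cyp1a1 KO and 9.76 in WT. DKO minus WT was -0.09 ± 0.22 (95% interval -0.54 to 0.36, limma adjusted p = 0.714), while DKO minus Cyp1a1 KO was 0.79 ± 0.22 (limma adjusted p = 0.00433).

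Klk10, a kallikrein made in many epithelia, ran the other way. Its 8 DKO arrays ran from 7.44 to 9.77 with a median of 8.84, those of Cyp1a1 KO from 8.08 to 11.01 with a median of 9.79, and those of WT from 9.29 to 11.57 with a median of 11.09. In WT, replicate 1 of week 12 at 9.29 was the array that overlapped with DKO. Klk10 was lower in DKO than in WT by 2.14 ± 0.29 on the log2 scale, written -2.14 as a signed difference (4.40-fold, limma adjusted p = 3.21e-06). DKO minus Cyp1a1 KO was -0.96 ± 0.29 (limma adjusted p = 0.00768). Klk13 had medians of 9.26 in DKO, 9.97 in Cyp1a1 KO and 10.69 in WT, and DKO minus WT was -1.17 ± 0.30 (limma adjusted p = 0.00149).

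Against Cyp1a1 KO, 4 members were higher in DKO (Klk6, Klk7, Klk8 and Klk14) and 1 was lower (Klk10), where 58.9% of all genes were called. Spink5 differed by 0.03 ± 0.16 between the knockouts (95% interval -0.30 to 0.37). DKO minus WT was 0.46 ± 0.16 (limma adjusted p = 0.0142), which lost the call without replicate 1 of WT week 12 (0.37, limma adjusted p = 0.0528). Cyp1a1 KO minus WT was 0.43 ± 0.16 (limma adjusted p = 0.24). The 8 Cyp1a1 KO arrays of Spink5, 11.65 to 12.04, all lay above the 8 WT arrays, 10.77 to 11.63, although the model did not call the difference. That non-overlap was seen for 0.277% of all genes.

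With the number range as a block, no member was called between DKO and WT or between DKO and Cyp1a1 KO. Klk8 then differed from WT by 1.07 (limma adjusted p = 0.193), Klk14 by 1.09 (0.162) and Klk6 by 1.15 (0.325), close to the values above but with larger errors. Klk10 moved to -0.84 (0.536) and Klk13 turned to 0.42 (0.781). Against Cyp1a1 KO, Klk10 turned to 0.17 (0.924). These values in parentheses are limma adjusted p-values. Without the narrow-range arrays the comparison with WT was of 1 DKO array, replicate 2 of week 12, with the 2 WT arrays of that week, and says nothing of the other weeks. At that week DKO minus WT was 2.10 for Klk14, 1.52 for Klk8 and 0.98 for Spink5. Replicate 1 of WT in that week had the lowest WT Spink5 value, 10.77. DKO minus WT was 1.23 for Klk6, -0.88 for Klk10, -0.50 for Klk13 and -1.08 for Klk5. With 1 DKO array no test of these differences is given. The comparison with Cyp1a1 KO was then of 1 array with 1, so its values are not given. In DKO against WT over weeks 4 to 16 with all arrays, 71.5% of all genes were called. All 5 sebocyte markers measured were lower in DKO (median -2.54), 3 of 5 basal keratinocyte markers were lower and 5 of 6 suprabasal markers were higher. Called higher too were 4 of 5 salivary or accessory gland markers (median 1.17), 3 of 5 neutrophil and 2 of 4 muscle markers. The same held for 14 of 16 other tissue kallikreins. In the salivary, neutrophil and other kallikrein lists 1 gene each was called lower. The part of cell mixture in the kallikrein differences was not tested.

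**Figure D3:**
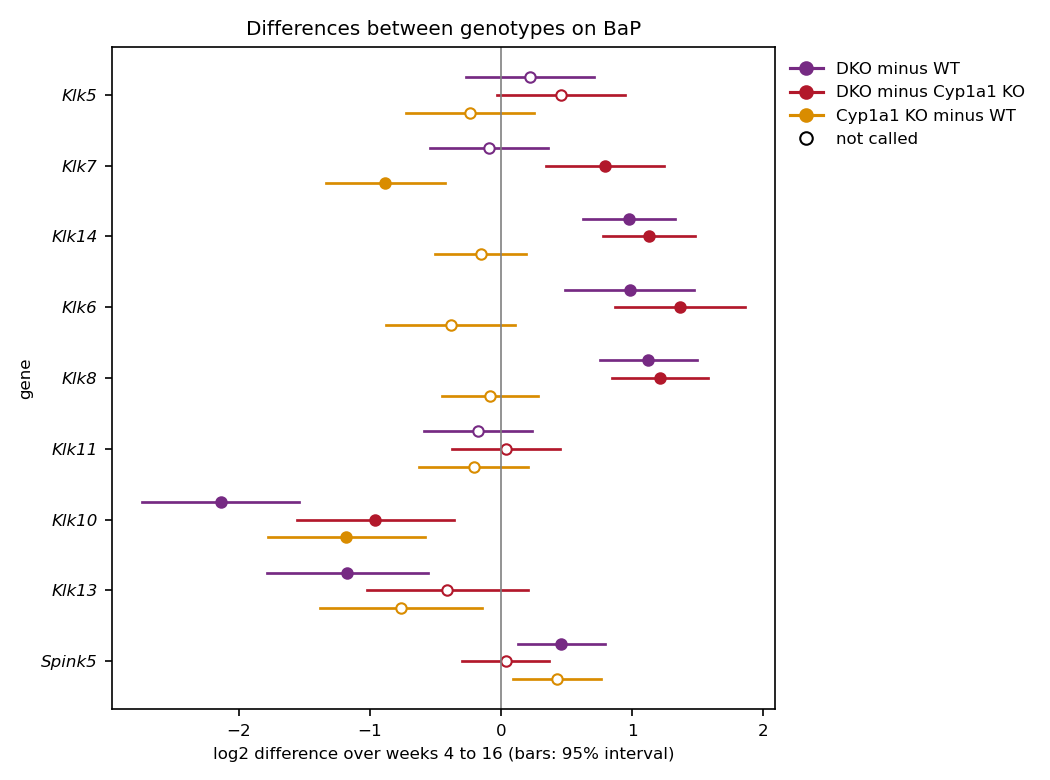
Log2 difference between genotypes over weeks 4 to 16 for each gene, with 95% intervals of the model; filled circles were called. Klk8, Klk14 and Klk6 lie about 1 unit above both other genotypes in DKO, Klk7 is near 0 between DKO and WT, and Klk10 lies at -2.14 between DKO and WT and at -1.18 between Cyp1a1 KO and WT.

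Between Cyp1a1 KO and WT on BaP, Klk7 and Klk10 were lower in Cyp1a1 KO, where 1.5% of all genes were called and 1.39% as lower. The Klk7 arrays of Cyp1a1 KO were 8.37 and 8.32 at week 4, 9.31 and 9.67 at week 8, 9.70 and 9.36 at week 12, and 8.77 and 8.68 at week 16. Those of WT were 9.87 and 9.66, 9.85 and 9.50, 10.75 and 10.68, and 9.31 and 9.62 in the same order of weeks. At weeks 4, 12 and 16 both Cyp1a1 KO mice lay below both WT mice, and at week 8 they overlapped. The difference was -0.88 ± 0.22 (limma adjusted p = 0.0417). For Klk10 it was -1.18 ± 0.29 (limma adjusted p = 0.0393). Both calls were near the threshold. With 1 of the 16 arrays left out in turn, the Klk7 call held in 1 of the 16 fits and the Klk10 call in 2. The number of members called was 0 to 3 in those fits, 0 with quantile normalization and 0 with the replicate number as a block.

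Before BaP, Klk7 was the 1 member called between DKO and WT, where 3.9% of all genes were called. It was 8.93 and 7.68 in DKO, 9.59 and 9.56 in Cyp1a1 KO, and 9.95 and 11.01 in WT. The arrays of the 3 genotypes did not overlap. In the same direction 22% of all genes did not overlap between DKO and WT, 12.2% between DKO and Cyp1a1 KO, and 18.4% between Cyp1a1 KO and WT. DKO minus WT was -2.18 ± 0.43 (4.52-fold lower, limma adjusted p = 0.0125). It lost the call without replicate 2 of WT week 0 (-1.65, limma adjusted p = 0.311) or replicate 2 of DKO week 0 (-1.55, limma adjusted p = 0.362). Without all narrow-range arrays, which leaves replicate 1 alone in DKO week 0, it was -1.55, and no test is given. DKO minus Cyp1a1 KO was -1.27 ± 0.43 (limma adjusted p = 0.565) and Cyp1a1 KO minus WT was -0.90 ± 0.43 (limma adjusted p = 0.725). In those 2 comparisons 0% of all genes was called, with 1 and 5 members, and 1601 and 1292 genes in all, at an unadjusted p under 0.05. Klk7 thus had its lowest week 0 mean in DKO, 8.31 against 10.48 in WT, while the BaP means were 9.81 in DKO and 9.90 in WT.

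Ordered by group mean over all 15 groups, each gene had few steps that exceeded the spread of the 2 mice. Neighbours in the order overlapped in 11 to 13 of 14 steps for each gene. For Klk14 the DKO groups of weeks 12, 8, 16 and 4 held the 4 highest places, at 7.69, 7.06, 6.57 and 6.22, and DKO week 12 did not overlap with the next. For Klk8 the 5 DKO groups held the 5 highest places, led by week 12 at 6.28 and week 16 at 6.04. For Klk10 the lowest place was DKO week 16 at 7.75, which did not overlap with the next group, and the highest were WT week 16 at 11.48 and WT week 4 at 11.33. The group means spanned 3.74 for Klk10, the widest of the 9, and 1.00 for Spink5, the narrowest, with a median SD within groups of 0.45 and 0.08.

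In Cyp1a1 KO and WT 2 sets of kallikreins, each close together in the locus, varied together. Klk7, Klk6 and Klk5, which are neighbours, were positively correlated from array to array, and so were Klk13, Klk12, Klk11 and Klk10, though not every pair passed the threshold in both genotypes. Klk14 joined the set of Klk13, Klk12, Klk11 and Klk10 in WT, while in Cyp1a1 KO its r with them ran from -0.15 to 0.14. Correlations were taken within each genotype over its arrays of all weeks, with all 10 arrays in DKO and WT and the 9 normal-range arrays in Cyp1a1 KO. Klk12 was added as a neighbour in the locus, after its values were seen. Klk9, Klk4 and Klk15 of the same block were measured but not added. Over the 19 normal-range arrays of Cyp1a1 KO and WT, Klk9 had r of -0.18 with Klk10 and 0.18 with Klk8, and Klk4 had r of -0.39 with Klk5. Klk15 had r of -0.78 with Klk10, -0.67 with Klk13, -0.66 with Klk12 and -0.57 with Klk11. These relations were not tested. The 135 relations were tested by permutation, exact over 9 arrays and with 100000 resamples over 10, and adjusted together. For Pearson's r, 22 passed an adjusted p under 0.05, none of them with Klk8. Between the 2 sets, Klk10 passed in WT with Klk5 (r = -0.90, adjusted permutation p = 0.0229) and with Klk7 (r = -0.80, adjusted permutation p = 0.0372). Both had rho of -0.68, which did not pass (adjusted permutation p = 0.147). Without the 2 arrays farthest from the median of Klk10, r was -0.33 and -0.50. The shuffling crossed weeks, so a course over weeks shared by 2 genes counts in these p-values like variation between mice.

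In WT, Klk7 and Klk6 had r = 0.94 (permutation p = 1e-05, adjusted p = 0.00124) and rho = 0.98 (p = 2e-05, adjusted p = 0.00135). In Cyp1a1 KO they had r = 0.92 (exact permutation p = 0.000529, adjusted p = 0.00918) and rho = 0.95 (p = 0.000353, adjusted p = 0.00529). In DKO they had r = 0.77 (permutation p = 0.0107, adjusted p = 0.055) and rho = 0.82 (p = 0.00567, adjusted p = 0.0403). Klk7 and Klk5 had r = 0.85 (permutation p = 0.00135, adjusted p = 0.0152) and rho = 0.88 (p = 0.00173, adjusted p = 0.018) in WT. In Cyp1a1 KO the r of that pair was 0.82 (exact permutation p = 0.00895, adjusted p = 0.0503), just short of the threshold. Without the 2 arrays farthest from the median of the first gene, r of Klk7 with Klk6 was 0.95 in WT, 0.88 in Cyp1a1 KO and 0.72 in DKO. Over the 19 normal-range arrays of Cyp1a1 KO and WT, Klk6 had the highest r with Klk7 of all 18783 other genes, at 0.91. By r with Klk10 over the same arrays, Klk12, Klk13 and Klk11 ranked 118, 119 and 800. By r with Klk12, Klk13, Klk10 and Klk11 ranked 4, 10 and 14. As these arrays share genotype and week, the ranks are descriptions.

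In the other set, Klk13 and Klk10 had r = 0.88 (permutation p = 0.00132, adjusted p = 0.0152) and rho = 0.99 (p = 1e-05, adjusted p = 0.00135) in WT, and Klk11 and Klk10 had r = 0.96 (exact permutation p = 2.76e-05, adjusted p = 0.00124) and rho = 0.97 (p = 0.000165, adjusted p = 0.00405) in Cyp1a1 KO. Without the 2 farthest arrays these were 0.95 and 0.92. In WT the r of Klk11 with Klk10 was 0.64 (permutation p = 0.0471, adjusted p = 0.148) and that of Klk12 with Klk10 was 0.70 (permutation p = 0.0205, adjusted p = 0.0865), neither past the threshold, while their rho of 0.82 and 0.87 had adjusted permutation p of 0.042 and 0.0197. With the narrow-range Cyp1a1 KO array added, r in Cyp1a1 KO was 0.88 for Klk11 with Klk10 and 0.91 for Klk7 with Klk6. Klk14 went with this set in WT, where its r with Klk13 was 0.82 (permutation p = 0.0043, adjusted p = 0.0306) and rho was 0.84 (p = 0.00408, adjusted p = 0.0324). With Klk12, Klk11 and Klk10 its r in WT was 0.89, 0.83 and 0.77 (adjusted permutation p = 0.00918, 0.0275 and 0.0311). In Cyp1a1 KO the r of Klk14 with Klk13 was 0.05, and in DKO Klk14 and Klk6 had r = 0.77 (permutation p = 0.00961, adjusted p = 0.0519) and rho = 0.75 (p = 0.0167, adjusted p = 0.0894). In the DKO arrays, 8 of them of narrow range, the 6 pairs of this set had r from 0.20 (Klk13 with Klk10) to 0.65 (Klk12 with Klk10), and none passed the threshold for r. The rho of Klk12 with Klk10 was 0.81 (permutation p = 0.00708, adjusted p = 0.0455). Of the other set, r in DKO was 0.34 for Klk6 with Klk5 and 0.24 for Klk7 with Klk5. Only 1 of the 22 relations past the threshold was in DKO, Klk10 with Spink5 (r = 0.79, permutation p = 0.00302, adjusted p = 0.0255; rho = 0.79, p = 0.00908, adjusted p = 0.0557). Its r was 0.63 without the 2 farthest arrays. A p of 1e-05 is the smallest that 100000 resamples can give.

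Spink5 and Klk7 had negative correlations in Cyp1a1 KO and WT that did not pass the adjusted threshold. Klk5 with Spink5 passed in WT by Pearson's r (-0.88, permutation p = 0.00688, adjusted p = 0.0422) and not by rho (-0.49, p = 0.155, adjusted p = 0.355). Its r was 0.10 without the 2 farthest arrays, so it rested on those arrays. In WT r of Klk7 with Spink5 was -0.71 (permutation p = 0.0297, adjusted p = 0.115) and rho = -0.28 (p = 0.427, adjusted p = 0.627), and it was 0.23 without the 2 farthest arrays, so it rested on those arrays. Replicate 2 of week 0 and replicate 1 of week 12 in WT had the 2 highest Klk7 values, 11.01 and 10.75, and the 2 lowest Spink5 values, 10.93 and 10.77. In Cyp1a1 KO r was -0.71 (exact permutation p = 0.0362, adjusted p = 0.129) and rho = -0.58 (p = 0.108, adjusted p = 0.28), with r = -0.79 without the 2 farthest arrays. In DKO it was 0.56, with r = -0.08 without the 2 farthest arrays.

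**Figure D4:**
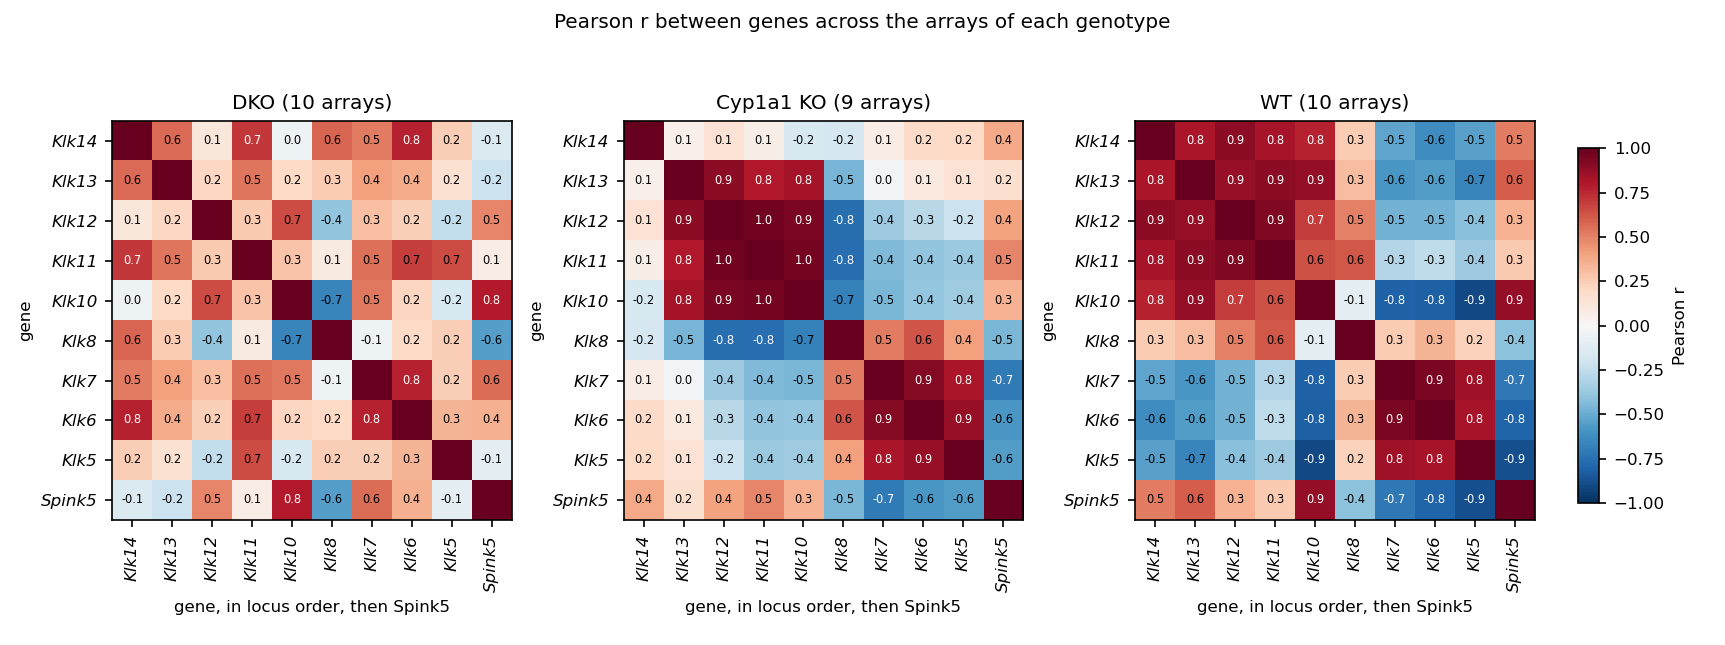
Pearson r between pairs of genes across the arrays of DKO, Cyp1a1 KO and WT, with kallikreins in the order of the locus and then Spink5. Klk9, Klk4 and Klk15 of the locus are not drawn. Red is positive and blue negative. In Cyp1a1 KO and WT the block of Klk13, Klk12, Klk11 and Klk10 and the block of Klk7, Klk6 and Klk5 are red, and in DKO both blocks are paler apart from Klk7 with Klk6.

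Other genes of the same pathway were read from lists. Among 16 other tissue kallikreins measured, 0 were called in the DKO change on BaP by limma and 4 had an unadjusted p under 0.05, with a median of 0.32. Of all 18784 genes 3047 had an unadjusted p under 0.05 in that change, which is the background for this and the next lists. The smallest adjusted p were those of Klk1b24 (1.36 ± 0.44), Klk1b21 (1.19 ± 0.44) and Klk1b11 (0.93 ± 0.35), at 0.128, 0.183 and 0.194 by limma. These glandular kallikreins are near-identical copies of one another, and their probe sets may not tell them apart. Of 8 other proteases of the cornified layer 0 were called by limma and 2 had an unadjusted p under 0.05. Prss8, the membrane protease prostasin, differed by -0.71 ± 0.24, Asprv1, which cuts profilaggrin, by -0.70 ± 0.34, and Casp14, the caspase of cornification, by 0.59 ± 0.41.

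Among 7 other inhibitors 0 were called by limma and 1 had an unadjusted p under 0.05. That was Slpi, the secretory leukocyte protease inhibitor, which in human skin inhibits KLK7. It had 9.81 to 11.20 in the DKO BaP arrays and 9.32 and 9.05 at week 0 with no overlap, a difference of 1.04 ± 0.26 (limma adjusted p = 0.0545). A2ml1 differed by 0.51 ± 0.28 and Spint2 by -0.37 ± 0.25. 

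Of 7 substrates and downstream genes 0 were called by limma, while 6 differences were positive, 5 had an unadjusted p under 0.05 and the median was 1.05. Dsc1, desmocollin 1, had a difference of 1.85 ± 0.49 (limma adjusted p = 0.0662). It was 8.38 and 5.57 in the 2 mice of week 0, so its spread there was nearly 3 units. Dsg1b, a desmoglein 1, differed by 1.45 ± 0.43 (limma adjusted p = 0.0968) and Il1b, a cytokine, by 1.45 ± 0.43 (limma adjusted p = 0.0998). Cdsn, corneodesmosin, differed by -0.13 ± 0.32.

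Of 6 suprabasal markers 2 rose on BaP, Krt1 by 4.43 ± 0.39 and Krt10 by 2.87 ± 0.31, in DKO. Krt1 was 4.93 and 6.91 at week 4 and 9.72 to 11.02 from week 8 on, against 4.47 and 5.37 at week 0. Its course differed from that of Klk6 and Klk7, since Krt1 was 10.93 and 10.22 at week 16. The mean level of the 6 suprabasal markers was 7.81 to 10.2 in the 8 DKO BaP arrays, against 7.15 and 7.75 at week 0. All 5 sebocyte markers had negative differences and 0 were called by limma, with 2 at an unadjusted p under 0.05. Their mean level was 6.56 to 8.91 on BaP, against 8.73 and 9.40 at week 0. Of 5 neutrophil markers S100a8 (4.63 ± 0.70), S100a9 (3.83 ± 0.87) and Cxcr2 (1.81 ± 0.41) rose, with a mean level of 5.86 to 9.17 on BaP against 5.61 and 5.68 at week 0. Of 5 basal keratinocyte, 4 muscle and 5 salivary or accessory gland markers 0 were called by limma, with 1 of each list at an unadjusted p under 0.05 and medians of -0.10, 0.27 and 0.20. The part of these cells in the kallikrein values was not tested.

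The genes whose pattern over the 15 group means was most like each member were found by Pearson's r. For Klk7 these were Lrrc8e, Dda1 and Klk6, at 0.91, 0.85 and 0.82, and for Klk6 they were Prr13, Tubb2a and Degs2, at 0.88, 0.87 and 0.85. For Klk14 they were Slc15a3, Lce3c and Fam25c, at 0.95, 0.94 and 0.93, and Lce3c is a gene of the late cornified envelope. For Klk8 they were Slc39a4, Lgr6 and Sprr2g, each at 0.96. Klk10 was most like Lima1, Hnrnpul1 and Slc26a9, each at 0.95, and Klk13 most like Rgl1, Dnase1l2 and Dhx33, at 0.92, 0.91 and 0.91. Spink5 was most like 6030468B19Rik, Mtmr7 and Flg2, at 0.94, 0.92 and 0.92. Klk5 was most like D630023F18Rik, Pla2g2f and Klk6, at 0.81, 0.79 and 0.77, and Klk11 most like Cyb561a3, Ier3 and Slc9a9, at 0.83, 0.82 and 0.81. These are descriptions over 15 points that share genotypes and the narrow range of the DKO arrays.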

How the data were processed

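RNA from snap-frozen preputial glands was amplified and hybridised to 30 single-colour arrays, 2 mice in each of 15 groups. The deposited values are log2 intensities summarised per probe set by RMA, per the submitters' processing notes, which corrects background, forces the arrays to a common distribution and takes log2. The arrays' medians ran from 5.12 to 5.47 and their spread differed, so the deposited values were not on 1 common distribution. Version and annotation build are not given in the sources used here. Of 21212 probe sets, 18786 had 1 gene symbol, 6 had several and 2420 were not listed, which left 18784 genes, and each member had 1 probe set. Listed genes without a match (Klk1b3, Klk1b4, Dsg1a, Flg, F2rl1 and Soat1) were not analysed here. Arrays give no read depth, and their number limits the precision.

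One limma 3.58.1 model (R 4.3.3) with a mean for each group was fitted to all genes, with 15 residual and 6.91 prior degrees of freedom. Intervals are 95% intervals of that model. The named genes were the members, the 3 genes of each pathway list with the smallest adjusted p in the DKO change, and the 3 genes most like each member. Other listed genes, Klk12 among them, are named where a count or the locus called for it, after their values were seen. The members and lists were chosen with earlier results of these data known. The alternatives were quantile normalization, median centring, a filter on low values, trended robust variance, array weights, a replicate block, the number range as a block or within each range, the mean of all probe sets, leaving out narrow-range arrays, only the groups compared, and leaving out each array. The model was tried on simulated data with the same spread for a gene in every array. That trial does not bear on the narrow-range arrays.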

Additional observations from a re-analysis of the deposited data

How the results depend on the processing

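With 2 mice a group and 8 narrow-range arrays among the 10 labelled DKO, calls near the threshold moved with the settings. Counts are members called of 9 by limma. Without the narrow-range arrays DKO keeps 1 array at week 0 and 1 at week 12, so comparisons with DKO there are of those weeks alone and their counts are not given. The same holds for DKO against Cyp1a1 KO within numbers 22 to 33, where Cyp1a1 KO has 1 array, of week 12. The DKO change on BaP had 3 in the fit described, 1 with median centring, 0 with array weights, 0 within numbers 22 to 33 and 0 with only the DKO groups, and 1 to 3 when 1 array was left out. DKO week 16 against week 0 had 0, 2 with quantile normalization (Klk8 and Klk14) and 0 to 3 with 1 array left out. DKO weeks 12 and 16 against weeks 4 and 8 had 0, 1 with quantile normalization, 1 with a block for number range and 0 to 1 with 1 array left out. DKO against WT on BaP had 6, 0 with a block for number range and 5 to 6 with 1 array left out. DKO against Cyp1a1 KO had 5, 0 with the number range as a block, 0 within numbers 22 to 33, 2 without the narrow-range arrays and 5 to 7 with 1 array left out. Cyp1a1 KO against WT had 2, 0 with quantile normalization, 1 with trended robust variance, 0 with the replicate block and 0 to 3 with 1 array left out. At week 0, DKO against WT had 1, 0 with quantile normalization, array weights, the number range as a block or only the groups compared, and 2 with median centring or the low-value filter. The count moved when 1 array was left out. At week 0, Cyp1a1 KO against WT had 0, 1 within numbers 1 to 20 or without the narrow-range arrays, and DKO against Cyp1a1 KO had 0, and 0 to 1 with 1 array left out. The DKO change minus the WT change had 0, 2 with quantile normalization, 1 with the number range as a block, 2 without the narrow-range arrays and 0 to 1 with 1 array left out. The DKO change minus the Cyp1a1 KO change had 0, 1 with a block for number range and 0 to 1 with 1 array left out. The Cyp1a1 KO and WT changes, and their difference, had 0 to 0 when 1 array was left out. The cause of these moves was not tested, except that fits within a range or group have fewer arrays.

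Klk13 in DKO against WT reversed to 0.42 with the number range as a block. Klk10 in DKO against Cyp1a1 KO reversed to 0.17 with that block and to 0.89 within numbers 22 to 33. In DKO against WT, 151 genes in all were called with the block, against 13429 without it. In that comparison quantile normalization gave a median over all genes of 0.06, against 0.19, and calls of 3175 higher and 3277 lower, against 7792 higher and 5637 lower. Over 105 pairs of groups the deviations of same-numbered mice correlated with a median r of -0.02 (range -0.55 to 0.67, 16 pairs over 0.1). No pairing by number common to all groups was seen, and a median over all pairs cannot exclude pairing in some. With the replicate block the DKO change had 2 members called and 158 genes, against 183 without it.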
